A study of Mus musculus with 12 samples.

Results

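The AP-1 and EGR immediate-early genes described here are 10 genes chosen by name: Fos, Fosb, Fosl1 and Fosl2 of the FOS family, Jun, Junb and Jund of the JUN family, the zinc-finger genes Egr1 and Egr2, and Ier2. All 10 were among the 15767 genes of the deposited tables, and 9 of them passed a filter on low counts and were tested among 13014 genes. Only Fosl1 did not pass, with 0 to 16 counts per library. In GENCODE M21 (GRCm38), Junb, Jund and Ier2 lie on chromosome 8, Jun on 4, Fos on 12, Fosb on 7, Fosl1 on 19, Fosl2 on 5, Egr1 on 18 and Egr2 on 10. Jun, Junb, Jund and Ier2 consist of 1 exon each. The cells were Neuro-2a, a mouse neuroblastoma line of wild-type genotype per the labels, used as a neuron-like model. In 12 libraries of total RNA, 4 came from cells given a miR-155 mimic, 4 from cells given a miR-155 inhibitor and 4 from cells given a control small RNA named miR-Con, and titles number the libraries of each group 1 to 4. All groups were transfected in medium without serum or antibiotics, had complete medium with 10% serum from 4 h on, and were collected on day 2. The line is a single tumour-derived line and the agents were added transiently. No value used here measures miR-155 itself or the uptake of either agent.

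Immediate-early genes are transcribed within minutes of a stimulus such as serum, growth factors or membrane depolarisation, without new protein synthesis, through serum response factor and its partners and through CREB. The set here goes by name, and whether each member answers a stimulus this way was not measured. The Jund protein, for example, is held by most resting cells. FOS and JUN proteins pair through leucine zippers to form AP-1, which binds DNA at its own short palindromic site. JUN proteins can also pair with each other, whereas FOS proteins need a partner. EGR proteins bind GC-rich DNA through zinc fingers, and in neurons many of these genes serve as marks of recent activity.

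MiR-155 acts through bases 2 to 8 of its mature strand, the seed, and its sequence is shown first because the study added or blocked it. It comes from RefSeq (GRCm38.p6, chr16:84714143-84714165, plus strand), with the seed in capitals. In the longest annotated 3' UTR of each of the 10 genes (GENCODE M21, GRCm38), only that of Fosl2 held a match to the seed. It is an 8mer, the seed match followed by an A, at bases 3751 to 3758 of a UTR of 4653 bases, and it is shown in capitals inside 30 bases of the UTR. Of 15403 genes with a UTR, 3.02% held an 8mer and 12.8% a 7-base or 8-base match. Shorter matches were not counted, in these genes or in the members. A match is a description of the sequence and not of binding.
mmu-miR-155-5p: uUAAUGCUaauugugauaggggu
Fosl2 UTR site: gaatagaaacagatAGCATTAAagtacttc

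Promoter sequence was at hand for 7 of the 10 genes, Fos, Fosb, Fosl2, Jun, Junb, Jund and Egr2. The windows below, from 250 bases before to 50 bases after a RefSeq transcription start (GRCm38.p6), belong to the 3 genes with the largest rises in the libraries numbered 4, described further on. Capitals mark the motifs, and the positions given are those of a motif's first base, counted back from the start, where the base just before it is -1. Egr2 (chr10:67537619-67537918, plus strand, the third of 5 listed starts) had a CArG box, the binding site of serum response factor, at -72. It also had the CRE core TGACG at -111 and, on the other strand, at -55. The listed starts of Egr2 differ: the window of the first held none of the motifs searched, that of the second held a CArG box of other letters and no TGACG, and those of the last pair overlap the window shown and hold the same matches. The window shown was chosen with these matches known. Fosb (chr7:19309996-19310295, minus strand) had TGACG at -60 and the EGR motif GCGNGGGCG at -50. Fosl2 (chr5:32136222-32136521, plus strand) had only the EGR motif, at -79.
Egr2: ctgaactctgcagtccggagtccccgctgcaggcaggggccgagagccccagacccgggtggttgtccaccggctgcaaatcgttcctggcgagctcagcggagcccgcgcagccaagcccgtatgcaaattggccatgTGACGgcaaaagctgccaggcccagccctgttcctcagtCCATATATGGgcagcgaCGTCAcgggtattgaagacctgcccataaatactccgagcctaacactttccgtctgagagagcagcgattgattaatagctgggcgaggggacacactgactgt
Fosb: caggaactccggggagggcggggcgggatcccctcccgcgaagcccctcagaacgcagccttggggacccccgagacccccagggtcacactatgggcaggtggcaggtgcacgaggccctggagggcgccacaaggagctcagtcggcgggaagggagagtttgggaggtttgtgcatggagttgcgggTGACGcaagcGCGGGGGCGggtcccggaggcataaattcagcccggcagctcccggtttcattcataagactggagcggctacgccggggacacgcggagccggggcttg
Fosl2: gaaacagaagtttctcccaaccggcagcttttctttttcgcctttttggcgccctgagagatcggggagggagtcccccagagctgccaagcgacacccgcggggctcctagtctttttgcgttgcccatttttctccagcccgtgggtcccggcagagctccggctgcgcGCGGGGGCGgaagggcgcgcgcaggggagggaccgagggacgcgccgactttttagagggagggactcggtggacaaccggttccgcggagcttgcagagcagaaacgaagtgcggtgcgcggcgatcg
On either strand, the CArG box was found in 1.63% of 32851 promoter windows of this length, TGACG in 20.8% and GCGNGGGCG in 5.55%. Of the other members, Fos had TGACG at -129 and at -66 and TATAAA at -33, and Junb had TGACG at -106 and TATAAA at 1, the start itself. TATAAA, searched on the gene's strand alone, stood in 8.32% of windows. Neither the whole CRE TGACGTCA, which contains the TGACG core and stood in 1.79% of windows, nor the AP-1 site TGANTCA, found in 7.81%, was present in the windows of these 7 genes. Only these exact spellings were searched, and only inside these windows, so sites further upstream would not be seen. Variants, such as the TGACATCA that the Jun window holds, were not counted.

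The libraries held 60695388 to 74200532 counts each. Markers of the labelled cell type were high: of 14 sympathetic neuroblastoma markers, Chgb averaged 2799, Hand2 1776, Tubb3 1184 and Phox2a 944 TPM, an abundance scaled by gene length and depth, while Th (0.781 to 1.66 TPM) was near 0. The libraries numbered 4, 1 in each group, stood apart from the other 9. With group and number in the fit, 5399 of the 13014 genes differed between number 4 and numbers 1 to 3. What a number marks is not in the labels. Nor do they say that replicates were grown as separate cultures, and p-values reflect only how far these libraries differ, part of which may be technical. How reads were assigned to strands is not given in the sources used here. Junb overlaps Prdx2 on the other strand in M21, Fosl1 overlaps Ccdc85b, Jun overlaps Junos and Jund overlaps Gm11175, each also on the other strand, so reads of those pairs may not be told apart.

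Levels between genes were set side by side in TPM, which divides by gene length. Ier2 (ENSMUSG00000053560), which encodes a short-lived nuclear regulator of transcription, had the highest mean over the 12 libraries, 520.2 ± 92.3 TPM (SD, n = 12), and Jund (ENSMUSG00000071076) followed at 430.6 ± 66.6 TPM. Junb (ENSMUSG00000052837) averaged 269 ± 22.9, Egr1 (ENSMUSG00000038418) 228 ± 26.4 and Jun (ENSMUSG00000052684) 134 ± 9.98 TPM. Among all 15767 genes, Ier2 ranked 265 and Jun 1497.

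The FOS family and Egr2 lay lower. Fosl2 (ENSMUSG00000029135) averaged 36.9 ± 6.26 TPM and Fos (ENSMUSG00000021250) 12.9 ± 1.35 TPM. Ranks went down to 10845 for Egr2 (ENSMUSG00000037868), which averaged 2.25 ± 0.637 TPM. Fosb (ENSMUSG00000003545) averaged 1.17 ± 0.256 and Fosl1 (ENSMUSG00000024912) 0.184 ± 0.181 TPM, at rank 12859. Every neighbouring pair in this order kept its order in 12 of 12 libraries, except that Ier2 was above Jund in 9 of 12. The 3 exceptions were the libraries numbered 4, where Jund measured 503 to 559 TPM and Ier2 358 to 389.8 TPM.

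**Figure D1:**
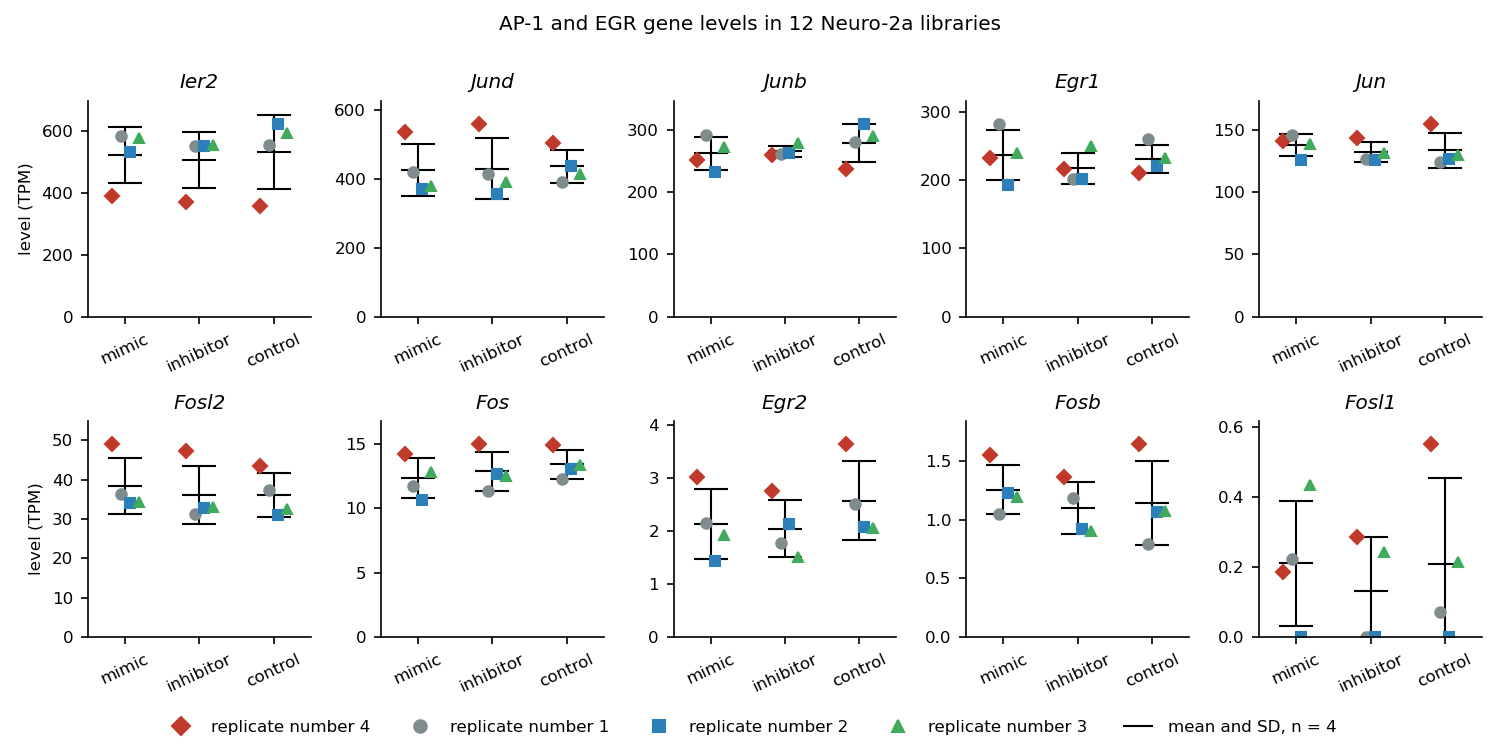
Levels of the 10 genes in each library, in TPM on linear axes that start at 0, for mimic, inhibitor and control; symbols give the replicate number and bars the mean and SD (n = 4). The 3 groups overlap in every panel, while the red diamonds of number 4 lie above the other libraries for Jund, Fosl2, Fos, Egr2 and Fosb and below them for Ier2.

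Neither the mimic nor the inhibitor was followed by a called change in these genes. In mimic against control, edgeR's quasi-likelihood test called 0 of the 9 tested members at a Benjamini-Hochberg adjusted p under 0.05, against 0 of 13014 genes (0%). Inhibitor against control likewise gave 0 of 9 (background 0%), and so did mimic against inhibitor (background 0%). At an unadjusted p under 0.05 the members numbered 0 in each comparison, against 71 (0.546%), 67 (0.515%) and 77 (0.592%) of all genes in the same order. DESeq2 called 3, 1 and 6 genes, none of them a member, and limma on log2(TPM + 1) called 0. For no member did 2 treatment groups separate without overlap in CPM, the counts scaled by library size, where 0.684%, 0.645% and 0.861% of all genes did.

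In the FOS family, Fosl2, which carries the seed match and encodes a FOS protein that lacks a strong activation domain, averaged 38.4 ± 7.13 TPM in mimic, 36.1 ± 7.46 TPM in inhibitor and 36.1 ± 5.70 TPM in control libraries (SD over 4 libraries each). Its log2 fold change was 0.07 in mimic against control, with a 95% interval of -0.29 to 0.43. Within numbers 1 to 3 alone, that value was 0.0030 (-0.14 to 0.14). In mimic against inhibitor the log2 fold change of Fosl2 was 0.07 (-0.29 to 0.42, unadjusted p = 0.699, adjusted p = 1 by edgeR). Fos, the founding member, averaged 12.4 ± 1.54 TPM in mimic, 12.9 ± 1.52 in inhibitor and 13.4 ± 1.13 in control. The log2 fold change of Fos in mimic against control was -0.14, with an interval of -0.43 to 0.14. Fosb, whose product is known in the brain for a stable truncated form, averaged 1.26 ± 0.212, 1.10 ± 0.222 and 1.14 ± 0.357 TPM in the same 3 groups.

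Among JUN genes the narrowest limits were those of Jun, the strong transactivator of the family, at 138 ± 8.73 TPM in mimic, 132 ± 8.15 in inhibitor and 134 ± 14.1 in control. Its log2 fold change was 0.02 in mimic against control (-0.17 to 0.205) and -0.02 in inhibitor against control (-0.21 to 0.17). Junb, a weaker activator that restrains Jun at some targets, had the smallest unadjusted p of the members in mimic against control (0.232, adjusted p = 1 by edgeR). It averaged 262 ± 26.1 TPM in mimic, 266 ± 8.89 in inhibitor and 279 ± 30.8 in control. Jund, the JUN protein that most resting cells hold, averaged 426 ± 76.1, 430.1 ± 89.5 and 436 ± 48.6 TPM in the same order.

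Egr2, known for its part in myelination and hindbrain patterning, had the largest fitted differences from control. Its limits were the widest in this fit, which held treatment group alone. Its log2 fold change was -0.29 in mimic against control (-0.87 to 0.29) and -0.33 in inhibitor against control (-0.91 to 0.25). Both comparisons use the same control libraries, whose mean was 2.57 ± 0.740 TPM, against 2.13 ± 0.664 in mimic and 2.04 ± 0.535 in inhibitor. The adjusted p was 1 by edgeR in each. A fit on group alone leaves the separation of number 4 in the spread. With replicate number added, the SE in mimic against control went from 0.266 to 0.151 for Egr2. It went from 0.187 to 0.0745 for Ier2 and from 0.165 to 0.0603 for Fosl2. Fosb, at 0.164, then had a wider SE than Egr2. Egr1, a broadly inducible regulator of plasticity and growth genes, averaged 236 ± 36.5 TPM in mimic, 217 ± 22.9 in inhibitor and 230.5 ± 21.1 in control. Ier2 averaged 521 ± 90.5, 507 ± 91.3 and 533 ± 119 TPM in the same order, with a log2 fold change of -0.07 (-0.47 to 0.34) in mimic against control.

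Over the 9 members, the median log2 fold change was -0.06 in mimic against control, -0.06 in inhibitor against control and 0.03 in mimic against inhibitor. The medians over all tested genes were -0.0068, -0.0099 and 0.0024. With the libraries numbered 4 left out of all groups, edgeR again called 0 of 9 members in each comparison, and the smallest unadjusted p was 0.0533, for Junb in mimic against control (adjusted p = 0.911). Of the members, 4 had a higher fitted mean in mimic than in control and 5 a lower one, while in inhibitor 1 had a higher mean than in control and 8 a lower one. Leaving out 1 library turned the sign of 6 members in mimic against control and of 6 in inhibitor against control, so those counts hold only for all 12 libraries. Fos and Egr2 kept a negative value under every alternative tried in both comparisons, as did Junb in mimic against control and Egr1 in inhibitor against control. Their sizes moved widely with 1 library left out. Egr2 ran from -0.53 to -0.085 in mimic and from -0.51 to -0.12 in inhibitor against control. Fos ran from -0.24 to -0.073 and from -0.14 to -0.012 in the same order. Junb ran from -0.20 to -0.041 in mimic against control, nearest 0 without control 2. Egr1 ran from -0.16 to -0.040 in inhibitor against control.

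**Figure D2:**
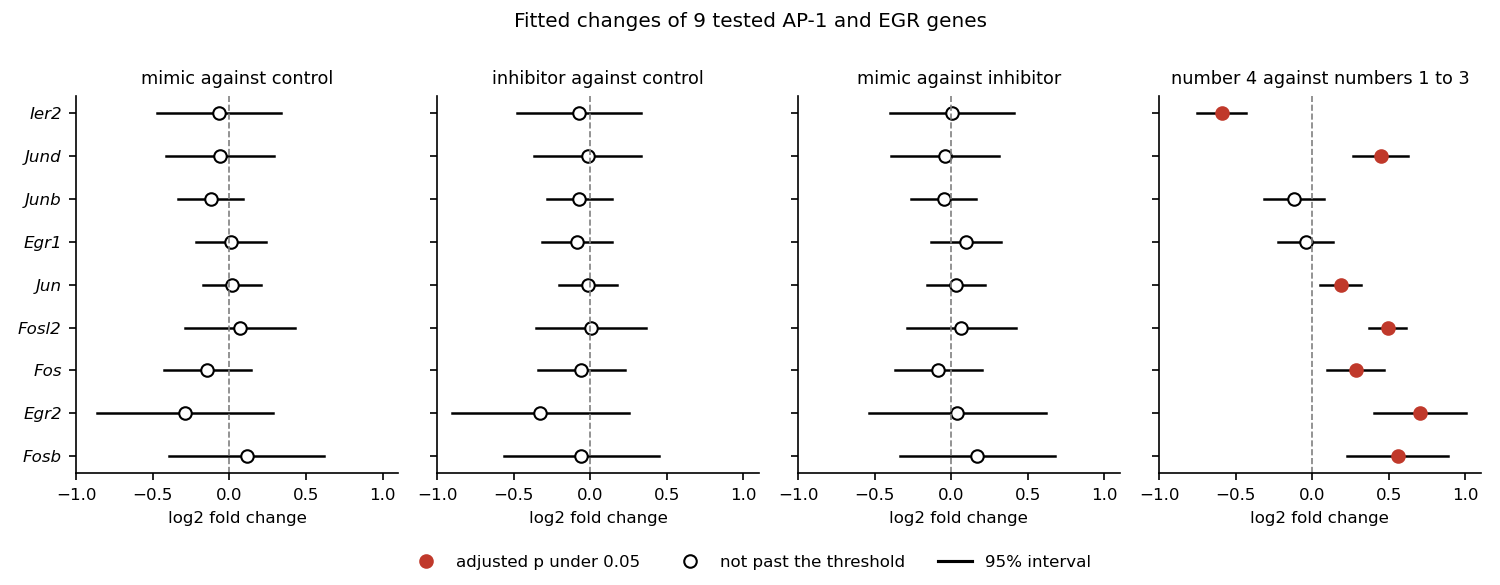
Fitted log2 fold changes of the 9 tested genes (points) with 95% intervals (lines) in 4 comparisons, filled where the adjusted p by edgeR was under 0.05. All 27 intervals of the 3 treatment comparisons include 0, and 7 of 9 genes are filled for number 4 against numbers 1 to 3.

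By replicate number, 7 of the 9 tested members differed between number 4 and numbers 1 to 3: Egr2, Fosb, Fosl2, Jund, Fos and Jun were higher at number 4, and Ier2 was lower. The background was 41.5% of all tested genes (20.4% called higher and 21.1% called lower), and whether the members' share differs from it was not tested. Fewer cells expressing a gene and less RNA per cell cannot be told apart in these bulk samples. Junb and Egr1 did not pass. The 7 called genes kept their direction in 3 of 3 treatment groups. The 3 libraries of number 4 lay above all other 9 in CPM for the 6 genes that were higher, and below them for Ier2, where 17.9% and 19% of all genes did so.

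Of the FOS family, Fosl2 measured 49.0 TPM in mimic, 47.2 in inhibitor and 43.6 in control in the libraries numbered 4. In numbers 1 to 3 it measured 36.3, 34.0 and 34.4 TPM in mimic, 31.4, 32.8 and 33.0 in inhibitor and 37.5, 31.0 and 32.5 in control. The lowest library of number 4 was thus above the highest of the others, and the log2 fold change was 0.49 ± 0.055 (SE, adjusted p = 6.26e-05 by edgeR). Fos measured 14.2, 15.0 and 15.0 TPM at number 4 in mimic, inhibitor and control, against 10.7 to 13.4 TPM with a median of 12.5 in the other 9. It rose by a log2 fold change of 0.28 ± 0.085 (adjusted p = 0.0202). Without mimic 4 (0.25, adjusted p = 0.11) or without inhibitor 4 (0.26, adjusted p = 0.102), Fos no longer passed.

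Fosb measured 1.55, 1.37 and 1.64 TPM at number 4 in mimic, inhibitor and control, from 323 to 403 counts. The other 9 libraries ranged from 0.793 to 1.23 TPM with a median of 1.07. The log2 fold change was 0.56 ± 0.15 (adjusted p = 0.0121 by edgeR), and it did not pass without control 4 (0.47, adjusted p = 0.0935). Fosl1, whose product is known from invasive tumour cells, had 5, 8 and 16 counts at number 4 in the same order of groups. In numbers 1 to 3 it had 6, 0 and 14 counts in mimic, 0, 0 and 7 in inhibitor and 2, 0 and 7 in control, so the sets overlap. A count of 0 allows up to 3 counts, or 0.0426 to 0.0487 CPM in the 4 libraries with none, for counting error only. DESeq2, which tested all 10 members, called Fosl1 as well as the 7 others. The share of all genes that DESeq2 called there is not given here, and the edgeR background does not apply to it. Counts of Fosl1 were also found outside number 4, however. The gene averaged 0.148 CPM at number 4, 0.129 at number 3 and 0.0203 in numbers 1 and 2. The libraries of number 3 lay above those of numbers 1 and 2 only barely. Control 3 had 7 counts (0.0933 CPM) and mimic 1 had 6 (0.0915 CPM). The share of all genes separated in this way is not given here, and counts this low allow no firm reading.

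Of the JUN family, Jund measured 535 TPM in mimic, 559 in inhibitor and 503 in control at number 4. In numbers 1 to 3 it measured 419, 369.7 and 378 TPM in mimic, 415, 355 and 391 in inhibitor and 390.4, 437 and 414 in control. The 2 sets do not overlap, and Jund rose by a log2 fold change of 0.45 ± 0.082 (adjusted p = 0.00137 by edgeR). Jun measured 141, 144 and 154 TPM at number 4 in mimic, inhibitor and control, against 124 to 146 TPM with a median of 127 in the other 9. Its 2 sets overlap in TPM, through mimic 1 at 146 TPM, and not in CPM, where number 4 ranged from 73.3 to 78.2 and the others from 61.1 to 70.8. The log2 fold change of 0.18 ± 0.060 (adjusted p = 0.0291) was the smallest called. Jun did not pass without mimic 2 (0.17), inhibitor 3 (0.18), inhibitor 4 (0.18), control 3 (0.17) or control 4 (0.14), each left out alone, and the adjusted p by edgeR was highest, at 0.193, without control 4.

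Junb, unlike Jund, was not called. It measured 252, 260.0 and 237 TPM at number 4 in mimic, inhibitor and control, against 232 to 309 TPM with a median of 279 in the other 9, and the sets overlap. The log2 fold change was -0.12, with a 95% interval of -0.31 to 0.07 (adjusted p = 0.297 by edgeR). Jund made up 57.4% ± 0.948 of the summed TPM of the 3 JUN genes at number 4 (SD, n = 3), against 49.4% ± 1.30 in the others (n = 9). Junb made up 26.9% ± 0.368 at number 4 and 34.3% ± 1.28 in the others, and the ranges do not overlap for either gene. The ratio of Jund to Junb was 2.13 ± 0.014 at number 4, against 1.44 ± 0.088 in the others.

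Summed over the family, JUN transcripts came to 928 ± 34.2 TPM at number 4 and 802 ± 47.8 TPM in the others, and FOS transcripts to 63.2 ± 2.19 and 47.1 ± 2.13 TPM. The ratio of JUN to FOS transcripts was 14.7 ± 0.404 at number 4 and 17.1 ± 1.25 in the others. Fosl2 held most of the FOS total in every library, 68.6% to 75.4%, with Fos at 21.9% to 29.0%. The shares of the FOS genes overlapped between number 4 and the others, with Fosl2 at 73.7% ± 1.85 and 71.4% ± 2.10. These ratios were computed from TPM per library and were not tested.

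**Figure D3:**
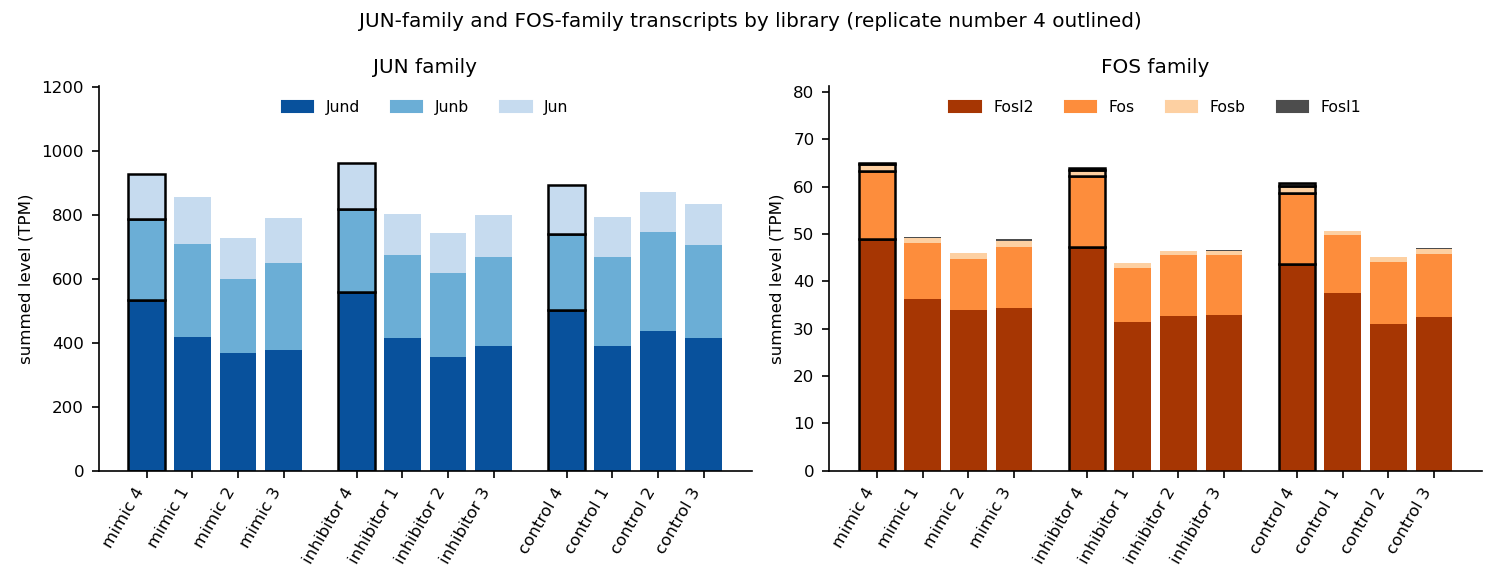
Summed TPM of the JUN genes (left) and FOS genes (right) in each of the 12 libraries, stacked by gene, with number 4 of each group outlined in black and placed first. Jund forms the largest block of the JUN stack and Fosl2 that of the FOS stack in all 12 libraries, and the outlined stacks are the tallest of their group in both panels.

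The EGR genes parted as well. Egr2 measured 3.02 TPM in mimic, 2.75 in inhibitor and 3.64 in control at number 4, from 311 to 427 counts. In numbers 1 to 3 it measured 2.15, 1.43 and 1.93 TPM in mimic, 1.78, 2.13 and 1.51 in inhibitor and 2.52, 2.085 and 2.06 in control. All 3 libraries of number 4 were above the other 9, and the log2 fold change of 0.70 ± 0.14 (adjusted p = 0.00195 by edgeR) was the largest among the members. Egr1 measured 232, 217 and 210.1 TPM at number 4 in mimic, inhibitor and control, inside the range of 193 to 282 TPM of the other 9. Its log2 fold change was -0.04, with an interval of -0.22 to 0.14 (adjusted p = 0.702), and the sign differed between groups, positive in 2 and negative in 1.

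Ier2 was the only called member that was lower at number 4. It measured 389.8 TPM in mimic, 370.1 in inhibitor and 358 in control at number 4. In numbers 1 to 3 it measured 584, 532 and 578 TPM in mimic, 551, 552 and 555 in inhibitor and 556, 622 and 594 in control. The highest library of number 4 was below the lowest of the others, and Ier2 fell by 0.59 on the log2 scale (SE 0.073, adjusted p = 0.000108 by edgeR). Of all tested genes, 14.4% had a change of at least this size in either direction, and 10.2% had one of at least that of Egr2. For the other called members the shares were 16.2% for Fosb, 19.8% for Fosl2, 23.5% for Jund, 41.5% for Fos and 58.7% for Jun. The ratio of Jund to Ier2 was 1.43 ± 0.072 at number 4, against 0.697 ± 0.032 in the others.

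Within numbers 1 to 3, 1 comparison was made. In number 3 against numbers 1 and 2, edgeR called 0 of 9 members (background 0%), and 0 members had an unadjusted p under 0.05, against 282 genes (2.17%). DESeq2 called 139 genes there, none of them a member, and limma on log2(TPM + 1) called 0 genes. A joint test of any difference between the 4 numbers called Fosl2, Jund, Egr2 and Ier2, or 4 of 9, against a background of 27.3%. Jund and Egr2 were lost from it without mimic 4 or without inhibitor 4, which left 2, Egr2 was lost without control 4, which left 3, and 9 were called without control 2. The count over all genes in this joint test ran from 1807 to 5884 with 1 library left out, lowest without inhibitor 4 and highest without control 2.

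Related genes, in lists drawn up with earlier results of these data known, moved at number 4 in both directions. Of 36 tested genes among 40 other immediate-early genes, 16 rose and 8 fell, with a median log2 fold change of 0.23, against -0.0001 over all tested genes. The most abundant was Ier3, a stress-inducible survival gene, at 1107 ± 14.6 TPM at number 4 (n = 3) and 230 ± 14.6 TPM in the others (n = 9), a log2 fold change of 2.29 (adjusted p = 3.65e-09 by edgeR). Bhlhe40, a repressor tied to the circadian clock, rose to 201 ± 4.19 TPM, against 51.2 ± 3.40 (log2 fold change 1.99). Myc fell to 110.1 ± 2.56 TPM at number 4, against 221 ± 15.5, and Atf3, a stress-inducible AP-1 partner, to 43.8 ± 2.66, against 102 ± 7.89. Cebpb and Nfil3, leucine-zipper factors, fell by 0.50 and 0.36 on the log2 scale, and Tob1 rose by 0.39.

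Of 19 tested feedback regulators, 8 rose and 2 fell (median 0.21). Dusp4, a nuclear phosphatase that inactivates MAP kinases, measured 960.3 ± 10.8 TPM at number 4 and 422 ± 17.5 in the others (log2 fold change 1.21, adjusted p = 1.06e-08 by edgeR). Dusp5 rose by 0.54 and Dusp6 by 0.29, both phosphatases of ERK, while Spry4, an inhibitor of receptor tyrosine kinase signalling, fell by 0.21. Nab2, a corepressor of EGR proteins, had a log2 fold change of 0.21 and did not pass (adjusted p = 0.099).

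Of 35 tested upstream kinases and transcription factors, 9 rose and 9 fell (median -0.03). Srf, which binds the CArG box, measured 194 ± 3.26 TPM at number 4 and 129.6 ± 6.72 in the others, and Map2k1, which activates ERK, 249 ± 5.92 and 167 ± 7.85 TPM. Each rose by 0.60 (adjusted p = 4.33e-05 for Srf and 7.52e-06 for Map2k1 by edgeR). Map2k5, which activates ERK5, fell by 0.51. Mapk3, which encodes ERK1, did not pass, with a log2 fold change of 0.17.

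Of 18 tested genes reported as AP-1 or EGR targets, 7 rose and 3 fell (median 0.40). Cdkn1a, a cyclin-dependent kinase inhibitor, measured 110.2 ± 2.53 TPM at number 4 and 60.6 ± 7.13 in the others, and Ezr, a linker of membrane and actin, 191 ± 2.07 and 124 ± 11.5 TPM. Ccnd1, which encodes cyclin D1, fell by 0.22. Of 12 tested AP-1 partners outside these families, 2 rose and 3 fell (median -0.05): Jdp2, a repressor that pairs with JUN proteins, measured 45.9 ± 2.16 TPM at number 4 and 70.9 ± 2.90 in the others. The shares called were 66.7% of tested other immediate-early genes, 52.6% of feedback regulators, 51.4% of upstream genes, 55.6% of reported targets and 41.7% of AP-1 partners, against 41.5% of all tested genes, and these differences were not tested. In the 3 treatment comparisons edgeR called 0 genes of any of the 5 lists, also at an unadjusted p under 0.05.

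**Figure D4:**
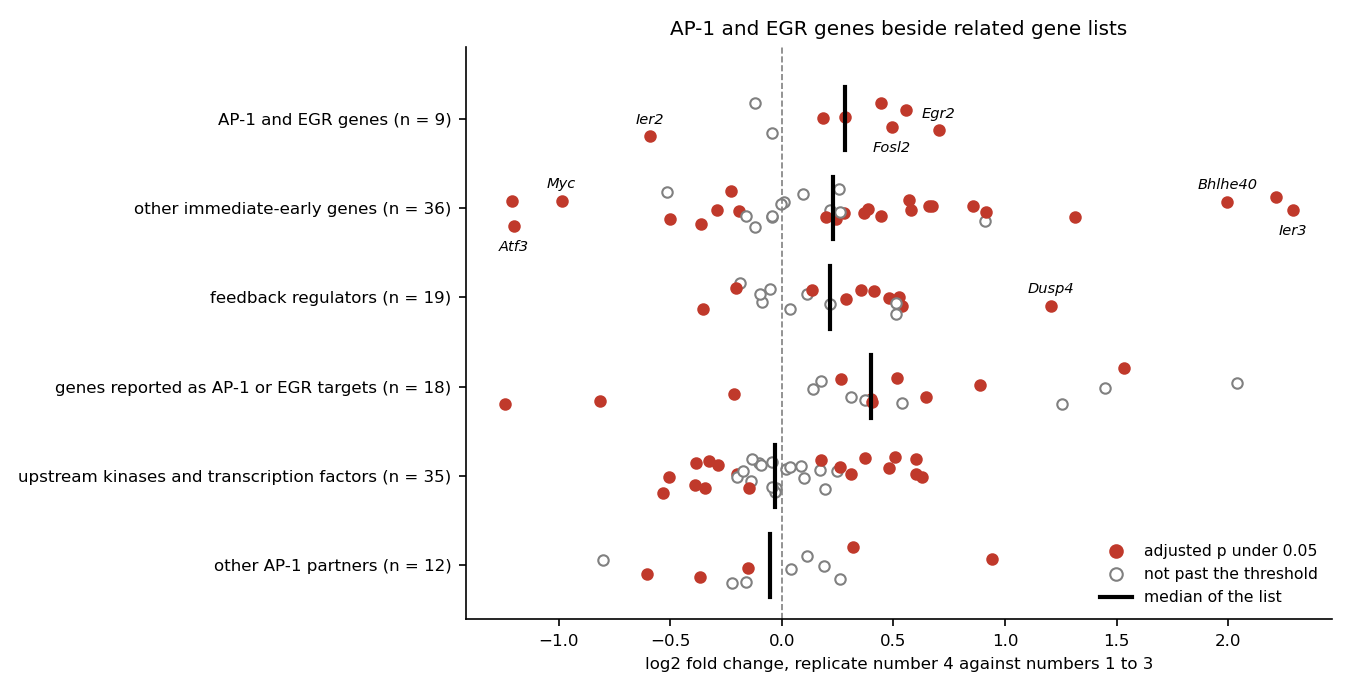
Log2 fold changes of single tested genes (points, spread vertically at random) at number 4 against numbers 1 to 3, in the AP-1 and EGR genes and 5 related lists, filled where the adjusted p by edgeR was under 0.05. Medians (black lines) are 0.28 for the 9 AP-1 and EGR genes and 0.23 for the other immediate-early genes, and each list holds single genes whose change exceeds 0.5 in size.

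Markers of cell types were also compared by number, where 41.5% of all tested genes were called (20.4% higher and 21.1% lower). Of 13 tested sympathetic neuroblastoma markers, 1 rose and 8 fell at number 4, and the sum over all 14 was 7755 to 7972 TPM at number 4 and 7789 to 8718 TPM in the others. The summed glial markers came to 4.69 to 5.18 TPM at number 4 and 3.43 to 4.92 TPM in the others, with 0 of 3 tested called. Immune and endothelial markers came to 2.77 to 3.04 and 1.74 to 2.73 TPM, with 1 of 2 tested called, and fibroblast and mesenchymal markers to 6.89 to 7.35 and 6.13 to 9.90 TPM, with 1 of 4 called. The part of any of these in the values above was not tested.

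For the 6 members with a mean of at least 10 CPM, the most similar profiles over the 12 libraries were those of genes outside the set. Likeness was the root mean square difference of log2 CPM, each gene centred on its mean. Fosl2 was closest to C77080 (0.045), Sh3pxd2b and Cmip, Jund to Thra (0.056), Tm7sf2 and Hmox1, and Ier2 to Rtf2 (0.039), Parp16 and Tbc1d22a. Jun was closest to Lrfn1 (0.046), Map4 and Lmbrd1, Junb to Sqstm1 (0.041), Slc7a5 and Pkmyt1, and Egr1 to Entpd3 (0.072), Top1mt and Lrrc75a. Few of the 13013 genes ranked are members, so a closest gene outside the set carries little information. The nearest member to Fosl2 was Jund, at rank 492 of 13013 genes, and the nearest to Egr1 was Junb, at rank 266. The nearest to Jund was Fosl2 (rank 325), to Jun Fos (1364), to Junb Egr1 (1859) and to Ier2 Junb (2755). All profiles share the libraries and the separation of number 4, so these are descriptions.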

How the data were processed

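RNA was measured in 12 Neuro-2a libraries, grouped by the treatment in the labels and numbered by their titles. The authors deposited a whole-number read count for each of 15767 genes, not normalized, and a TPM value for each. The submitters' processing notes name fastp, STAR, StringTie, featureCounts, edgeR and build GRCm39, and no source used here gives their versions, roles, annotation or strand setting. The deposited TPM equal the counts divided by a fixed length per gene (the ratio varied by at most 0.00248% between libraries over 9159 genes), so TPM and counts are not independent measures.

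The tests used edgeR 4.0.16 (R 4.3.3): filterByExpr, TMM scaling and a robust quasi-likelihood fit of the 12 libraries. Treatment comparisons had a group term alone, so the separation of number 4 stayed in their spread. Comparisons between numbers had group and number. Tests were two-sided and adjusted by Benjamini-Hochberg over 13014 genes, with a threshold of 0.05 and 95% intervals. CPM use scaled library sizes. The steps were tested on simulated counts. For the treatment comparison these held no separation of number 4, so they do not show what the fit on group alone could detect here. Alternatives used DESeq2 1.42.0, limma 3.58.1, other scalings and filters, a replicate block, numbers 1 to 3 alone and each library left out. Pairs of libraries within a group had a chi-square per degree of freedom of 20.7 to 241, and 0 pairs were taken as copies.

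The 10 genes, the lists and the comparison by number were chosen with earlier results of these data known. Genes named from each list were drawn from its 8 of highest mean TPM. The files gave symbols for 15499 genes and a name table gave 260 more. Sequences were read from RefSeq tables (GRCm38.p6) and GENCODE M21 (GRCm38), not the authors' build. Promoters of Fosl1, Egr1 and Ier2 were not used here.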

Additional observations from a re-analysis of the deposited data

Results flagged for a closer look

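In 4 of the 30 combinations of gene and treatment group with differing values, 1 library stood far from the other 3 of its group, by a gap in TPM past Dixon's critical value for 4 samples at the 95% level. Chance flags about 1 in 20 such groups. Of these 4, 3 were libraries numbered 4. Fosl2 was at 49.0 TPM in mimic 4, against 34.0 to 36.3 TPM in the other mimic libraries, and at 47.2 TPM in inhibitor 4, against 31.4 to 33.0 TPM in the other inhibitor libraries. Ier2 was at 370.1 TPM in inhibitor 4, against 551 to 555 TPM in the others of that group. The fourth was Junb in inhibitor 3, at 279 TPM, against 260.0 to 263 TPM in the others.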

How the results depend on the processing

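The edgeR call of 0 members in each treatment comparison held under all 21 alternatives tried per comparison, and the count of 7 members at number 4 was 7 under 7 of the other settings, 8 with DESeq2 (Fosl1 added) and 5 to 7 with 1 library left out. The number 4 values of Fosl2, Jund, Egr2 and Ier2 passed in all 20 alternatives, with log2 fold changes of 0.45 to 0.56, 0.39 to 0.53, 0.49 to 0.77 and -0.66 to -0.52. The count of 4 members in the joint test of numbers was 6 with DESeq2 and 5 without a group term. With 1 library left out it was 2 to 9: 2 without mimic 4 or inhibitor 4 and 9 without control 2. DESeq2 was run on more genes than edgeR, so the edgeR backgrounds do not apply to its counts. The shares of all genes called at number 4 or in the joint test with DESeq2, or without a group term, are not given here. Over all genes, the number 4 count ran from 3690 to 6589 with 1 library left out, and that of number 3 against numbers 1 and 2 was 0, but 139 with DESeq2 and 569 without control 2.

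Of member values, 64 changed sign under an alternative, 49 of them in treatment comparisons, and none of the 64 was past the threshold. In mimic against control, Egr1 was -0.0004 with a replicate block and -0.049 with numbers 1 to 3 alone. In inhibitor against control, numbers 1 to 3 alone gave 0.031 for Fosb, 0.0067 for Jun and -0.061 for Fosl2, and Fosl2 was -0.0088 and -0.0091 with limma on log2(TPM + 1) and log2(TPM + 0.1) and -0.0091 with the block. In mimic against inhibitor, numbers 1 to 3 alone gave -0.021 for Egr2 and -0.013 for Ier2. In number 3 against numbers 1 and 2, Jund was 0.0021 with DESeq2 and with RLE scaling. With 1 library left out, the lowest and highest values in mimic against control were Fosb -0.039 to 0.33, Fosl2 -0.091 to 0.16, Jun -0.033 to 0.085, Jund -0.21 to 0.0065, Egr1 -0.058 to 0.099 and Ier2 -0.22 to 0.046. In inhibitor against control they were Fosb -0.21 to 0.15, Fosl2 -0.16 to 0.098, Jun -0.063 to 0.052, Junb -0.15 to 0.0076, Jund -0.17 to 0.070 and Ier2 -0.23 to 0.046. In mimic against inhibitor they were Fos -0.18 to 0.0002, Fosl2 -0.094 to 0.23, Junb -0.085 to 0.012, Jund -0.19 to 0.11, Egr2 -0.20 to 0.22 and Ier2 -0.11 to 0.11. Between numbers, Egr1 at number 4 ran from -0.093 to 0.028, and in number 3 against numbers 1 and 2 the ranges were Fosb -0.076 to 0.16, Fosl2 -0.036 to 0.018, Junb -0.012 to 0.13, Jund -0.055 to 0.073 and Ier2 -0.014 to 0.090. The cause was not tested.

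Libraries that share a number deviated together for number 4 (r of at least 0.641), but only 8 of 12 same-number pairs had r above 0.1 (-0.141 to 0.738), and 7 of 12 libraries correlated best with their own number, so the numbers were not taken to pair the libraries. With the number as a replicate block, edgeR called 0 genes in each treatment comparison, with 191, 161 and 139 genes at an unadjusted p under 0.05 for mimic over control, inhibitor over control and mimic over inhibitor in turn. Egr2 then had log2 fold changes of -0.30 and -0.32 against control in mimic and inhibitor (unadjusted p = 0.0743 and 0.0581, adjusted p = 1). The floor of 3 counts and the 0 to 16 counts of Fosl1 limit what can be said of that gene.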
